A study of Amphiura filiformis with 28 samples.

Results

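In arm explants of the brittle star *Amphiura filiformis*, 60 genes of the 30090 in the explant table were chosen as raised alike at both cut ends. An explant is a piece of arm kept in culture after amputation, so that it carries a wound at either end. Its distal end regenerates, its proximal end only heals, and its medial part has no wound and served as the control. The choice used group means of log2(value + 1). A gene had to differ by at most 0.5 between distal and proximal segments at 5 and at 3 days post amputation (dpa), which 25098 genes did, and the 60 genes with the largest rise over medial segments were kept, taking the smaller of the proximal and distal means and the lower of the days. All 60 genes passed the filter on low values, 3 or more samples reaching a value of 1, which left 21442 genes for tests. All 60 are also in the table of the regeneration time course, which played no part in the choice.

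The explants gave 20 libraries, with 3 distal, 3 proximal and 3 medial samples at 5 dpa, and 4 distal, 3 proximal and 4 medial samples at 3 dpa. Every animal was wild type and untreated, and each sample pooled segments cut from many explants, so that the spread between samples is that of pools. The regeneration time course held 8 libraries, 1 a stage, each made from pooled regenerates: a non-regenerating control (mature arm segments, though the label of their tissue reads as explant), 48 and 72 h post amputation (hpa), stages 3, 4 and 5, and the distal and proximal part of arms that were 50% differentiated. The 48 and 72 hpa libraries still contained the last old segment next to the wound, whereas stages 3 to 5 contained new tissue alone, so stage and tissue cannot be told apart there. Values are transcript abundances scaled to a fixed sum (TPM) rescaled between samples by the trimmed mean of M-values (TMM), and TPM keeps no record of depth. In these bulk samples, fewer cells of a type and less RNA per cell cannot be told apart.

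A wound in an echinoderm arm is first closed by a new epidermis, while wandering coelomocytes gather and debris is cleared. Only afterwards does a bud of dividing cells form, segment and differentiate. The distal and proximal ends of an explant share the early steps and part ways later, so the time course was used to place genes raised at both ends along a complete regeneration.

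Libraries stood apart in some respects. Column totals ranged over 1024512 to 2976429, the highest being replicate 4 of proximal segments at 5 dpa. Replicate 2 of medial segments listed 7439 genes at 0 at 5 dpa and 6099 at 3 dpa, the most of the 20 libraries. The median log2(value + 1) over the 60 genes was 4.35 to 4.56 in distal, 3.83 to 4.74 in proximal and 3.02 to 3.15 in medial libraries at 5 dpa, and at 3 dpa 4.24 to 4.39 in distal, 4.05 to 4.26 in proximal and 2.67 to 3.26 in medial libraries. Replicate 2 of medial segments at 3 dpa was the lowest of all 20 libraries. With those 3 libraries left out together, a choice made after seeing the data, the rule kept 34 of the 60 genes.

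The rise itself was fixed by the choice and is given as a description. Differences of distal from medial segments were 0.81 to 2.83 at 5 dpa (median 1.26) and 0.81 to 3.20 at 3 dpa (median 1.20) on the log2 scale. Those of proximal from medial segments were 0.79 to 3.09 (median 1.16) and 0.79 to 2.89 (median 0.93). At 5 dpa every distal and proximal sample lay above every medial sample for 40 of the 60 genes, where 5.93% of all genes tested did so. At 3 dpa this held for 45 of the 60 genes, where 4.99% of all genes did so. Called at a Benjamini–Hochberg adjusted p under 0.05 with limma and a log2 difference over 1, 39 genes were higher in distal than in medial segments at 5 dpa (3.42% of all genes) and 35 at 3 dpa (1.7% of all genes). Against medial segments, 33 genes were higher in proximal segments at 5 dpa (1.52% of all genes) and 15 at 3 dpa (0.438% of all genes). The proximal counts depend on the processing, and those over all genes moved with them. Scaled to the same total, the proximal counts were 9 at 5 dpa and 8 at 3 dpa, where 61 and 51 of all 21442 genes were called higher. The distal count at 5 dpa was then 25, with 387 of all genes. With only the groups compared in the fit, the proximal count at 5 dpa was 2 (13 of all genes). Without the 3 libraries named above it was 19 (115 of all genes), where the main fit called 325 of all genes. A single library left out gave 21 proximal calls at 5 dpa (142 of all genes, without replicate 4 of proximal segments) to 43 (890 of all genes, without replicate 5). At 3 dpa it gave 8 to 16 (57 and 97 of all genes), where each proximal library left out gave 8 or 9. None of the 60 genes was called lower, as the choice required, where at 5 dpa 2.05% of all genes were lower in distal and 0.438% in proximal segments, and at 3 dpa 0.284% and 0.00933%.

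**Figure D1:**
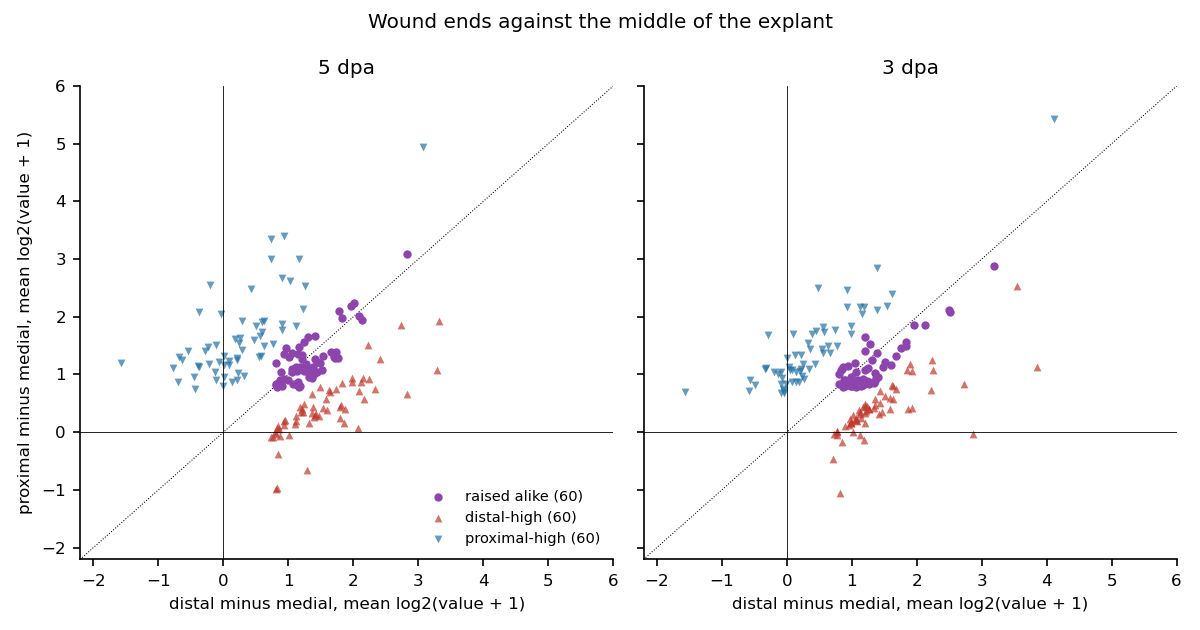
Each point is a gene, at its distal minus medial (x) and proximal minus medial (y) difference of mean log2(value + 1), at 5 dpa (left) and 3 dpa (right). The 60 genes raised alike (purple) lie along the dotted diagonal from 0.79 to 3.20, below and above which sit the 60 distal-high (red) and 60 proximal-high (blue) genes, and all 3 lists were placed there by how they were chosen.

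Most of the 60 genes were moderately expressed, and few stood far out. Mean values over the 20 explant samples ranged over 0.881 to 826 (median 16.8), with 8 genes over 100 and 6 under 3. A medial sample at 5 dpa was listed at 0 for 11 genes and at 3 dpa for 10 genes. The smallest of a gene's 4 rises had a median of 0.86 over the list and exceeded 1 for 12 genes. At the edge, AFI16284 (rank 60) had a smallest rise of 0.790 and AFI27512 (rank 61), the next gene and no longer of the list, one of 0.787, so the list fades into the genes after it.

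Only 1 of the 60 genes, Hs90b (AFI30566), could be given a name. Names came from the rows for chromosome 1 of the authors' annotation, which cover 1192 genes of the explant table, and no identifier was found in the RefSeq gene table of the species. The other 59 genes are therefore given by identifier and by values alone, and no sequence could be shown for them.

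AFI18194 stood first by a wide margin, with a smallest rise of 2.83. At 5 dpa it was at 113, 92.8 and 76.6 TPM in distal samples, at 115, 157 and 77.3 TPM in proximal samples, and at 8.96, 17.3 and 11.8 TPM in medial samples. At 3 dpa it was at 98.8, 90.5, 93.5 and 87.5 TPM in distal samples, at 69.0, 78.5 and 76.0 TPM in proximal samples, and at 9.63, 10.3, 7.24 and 9.93 TPM in medial samples. No wound-end sample came near the medial range on either day, and the means were 7.42-fold (distal) and 9.18-fold (proximal) those of medial segments at 5 dpa and 9.98-fold and 8.03-fold at 3 dpa.

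AFI02359 came next, with a smallest rise of 2.01. It was at 14.6, 16.7 and 10.6 TPM in distal, 19.8, 16.1 and 13.9 TPM in proximal and 2.88, 2.58 and 2.57 TPM in medial samples at 5 dpa. At 3 dpa it was at 19.2, 20.1, 24.6 and 17.9 TPM in distal, 14.3, 16.2 and 14.3 TPM in proximal and 3.61, 2.93, 1.93 and 2.70 TPM in medial samples. Its medial level was low and even over the 7 samples, and the wound ends lay above it without overlap.

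AFI01608 was the most abundant of the 60 genes. It reached 1023, 1025 and 977 TPM in distal, 1130, 1418 and 727 TPM in proximal and 460, 372 and 485 TPM in medial samples at 5 dpa, and 1025, 825, 965 and 1141 TPM, 836, 901 and 1113 TPM, and 511, 487, 483 and 620 TPM in those segments at 3 dpa. The groups did not overlap, but the wound ends were only 1.81-fold to 2.49-fold above medial segments. AFI16284, at the edge of the list, looked alike at a lower level: 16.9, 19.5 and 15.4 TPM in distal, 14.7, 14.2 and 10.5 TPM in proximal and 6.81, 7.86 and 6.67 TPM in medial samples at 5 dpa.

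Hs90b was annotated as a member of the HSP90 family, chaperones that every cell uses to fold and hold ready kinases, receptors and other signalling proteins, and that rise when proteins are damaged. Its gene model lies on chromosome 1 of the authors' assembly from 20670386 to 20672734 on the forward strand. At 5 dpa it was at 235, 241 and 216 TPM in distal, 231, 226 and 143 TPM in proximal and 119, 64.1 and 77.1 TPM in medial samples. At 3 dpa it was at 323, 272, 293 and 556 TPM in distal, 216, 214 and 553 TPM in proximal and 152, 121, 120 and 349 TPM in medial samples. The groups were apart at 5 dpa, and at 3 dpa they overlapped because replicate 4 was high in every segment, at 1.88-fold (distal), 2.58-fold (proximal) and 2.67-fold (medial) the mean of the other replicates. Set against the medial sample of the same number, Hs90b was higher at 3 dpa in each distal sample (1.59-fold to 2.45-fold) and in each proximal sample (1.58-fold to 1.78-fold). What sets the libraries numbered 4 apart was not tested. With limma, Hs90b was called against medial segments only in distal segments at 5 dpa (log2 difference 1.45, adjusted p = 0.0225). It was not called in proximal segments at 5 dpa (limma adjusted p = 0.0851). At 3 dpa it was called in neither distal nor proximal segments (limma adjusted p = 0.0776 and 0.466).

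The adjoining Hsp83 (AFI29871, 20667059 to 20670328, forward strand), also of the HSP90 family, ended 57 bases before Hs90b began. Its level was 0.523 to 0.765 times that of Hs90b in each of the 20 samples, so the pair moved together. Both are of 1 family and lie side by side, but their sequences were not compared. How kallisto divided reads between them is not known, so the values of either gene alone are uncertain. Of the 8 chaperone genes named on chromosome 1, Hs90b included, a list put together after values were seen, 6 passed the filter. In distal segments 4 of those 6 were called higher at 5 dpa (3.42% of all genes) and 2 at 3 dpa (1.7%), and in proximal segments 0 at 5 dpa (1.52%) and 1 at 3 dpa (0.438%), with none called lower in these comparisons. Hs90b, itself chosen on these values, is 1 of the 6, so the counts are a description.

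**Figure D2:**
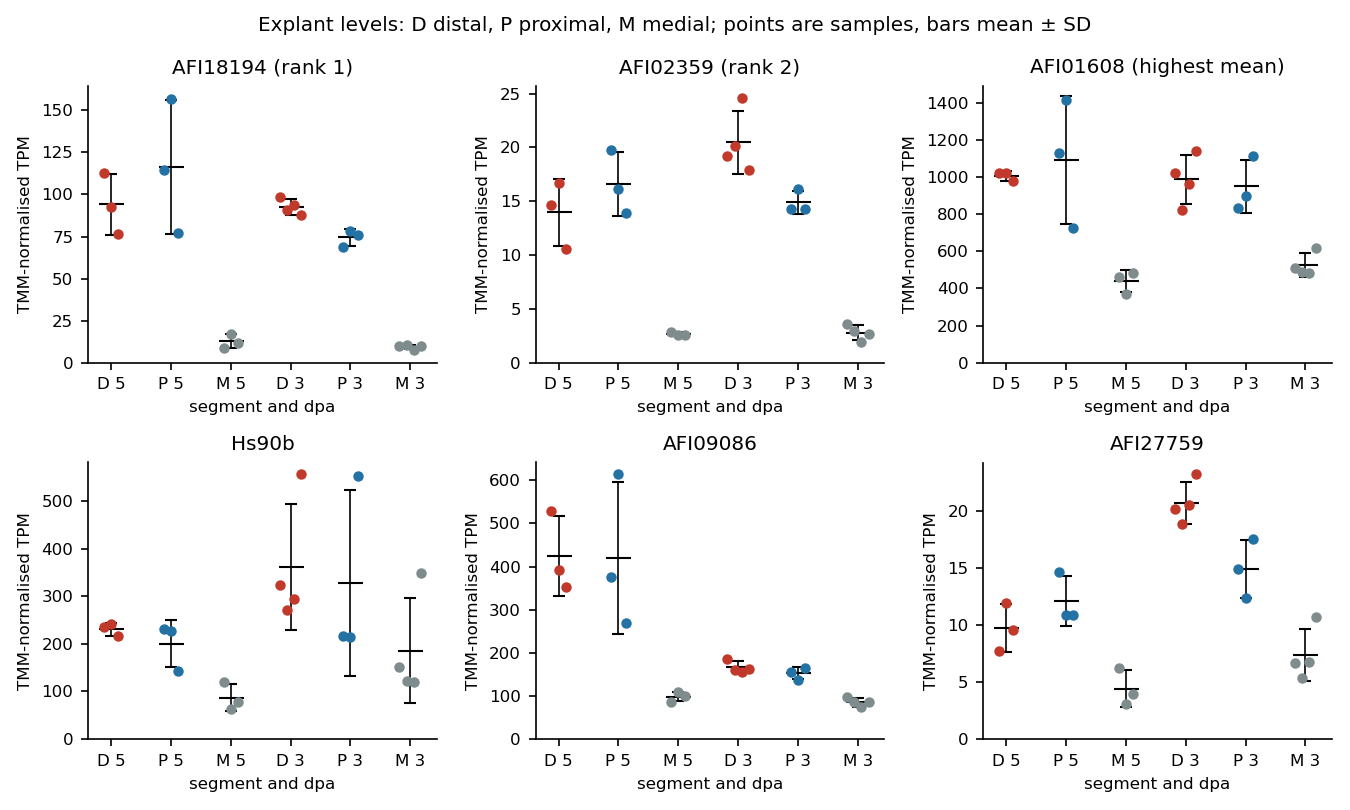
TMM-normalised TPM of 6 of the 60 genes in each explant sample (points, coloured by segment: D distal, P proximal, M medial) with the mean and SD, for 5 dpa and then 3 dpa. AFI18194, AFI02359 and AFI01608 show wound ends clear of medial samples, Hs90b shows replicate 4 high in all 3 segments at 3 dpa, AFI09086 is higher and AFI27759 lower at 5 dpa than at 3 dpa in distal samples.

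Change between days within a segment was not part of the choice, though the choice kept distal and proximal changes close to each other. Few of the 60 genes changed. In medial segments, limma called 0 of the 60 genes at 5 dpa against 3 dpa (0.00466% of all genes), and 6 of the 60 had an unadjusted p under 0.05, against 11.5% of all genes. Without replicate 1 of medial segments at 5 dpa, 1 of the 60 genes and 180 of all genes were called. The median difference over the 60 genes was 0.03 in distal, 0.20 in proximal and 0.03 in medial segments, and -0.03, -0.03 and -0.02 over all genes. When every library was scaled to the same total, the median over all genes shifted to -0.30, -0.34 and -0.14 and the medians over the 60 genes to -0.32, -0.24 and -0.11, so the sign of these day changes depends on the scaling. The proximal median also rests on single libraries: it was 0.43 without replicate 5 and 0.08 without replicate 4 of proximal segments at 5 dpa.

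In distal segments, 3 of the 60 genes rose at 5 dpa against 3 dpa (0.499% of all genes) and 1 fell (0.336% of all genes). They are named here after their values were seen. All had a distal difference over 1 on the log2 scale. The choice limited the distance between distal and proximal means on both days, so their proximal direction was fixed with it. AFI09086 was at 530, 393 and 353 TPM at 5 dpa and 187, 160, 156 and 162 TPM at 3 dpa in distal samples, a rise of 1.33 on the log2 scale (SE 0.21, limma adjusted p = 0.00305). In proximal samples it was at 377, 614 and 270 TPM at 5 dpa and 156, 137 and 164 TPM at 3 dpa, a rise of 1.38 (SE 0.23, limma adjusted p = 0.0184), the only call among the 60 genes there (0.0606% of all genes were called higher). Medial samples of AFI09086 overlapped between days, at 86.9, 108 and 98.8 TPM at 5 dpa and 98.6, 85.2, 73.8 and 85.2 TPM at 3 dpa, so its wound-end level rose over an even medial level.

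AFI33239 was at 39.2, 38.0 and 31.0 TPM at 5 dpa and 17.2, 14.6, 15.8 and 19.6 TPM at 3 dpa in distal samples, a rise of 1.06 (SE 0.22, limma adjusted p = 0.0170). AFI13390 was at 43.1, 21.5 and 13.3 TPM at 5 dpa and 9.995, 9.78, 8.57 and 8.67 TPM at 3 dpa, a rise of 1.24 (SE 0.31, limma adjusted p = 0.0417) with a wide spread at 5 dpa. Both had the same direction in proximal samples, as the choice required. The differences there, 0.95 and 1.61, were not called (limma adjusted p = 0.0897 for AFI33239 and 0.0606 for AFI13390). AFI27759 went the other way: it was at 7.76, 11.9 and 9.59 TPM at 5 dpa and 20.2, 18.9, 20.5 and 23.3 TPM at 3 dpa in distal samples, a fall of 1.03 on the log2 scale in limma (difference -1.03, SE 0.22, adjusted p = 0.0191). Its mean log2(value + 1) was also lower at 5 than at 3 dpa in medial (2.40 and 3.03) and proximal segments (3.70 and 3.98), where it was not called. The proximal direction was again fixed by the choice.

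Several of these calls depended on the scaling or on single libraries. With every library scaled to the same total, the 3 rises fell short of the threshold, at 0.94 for AFI09086, 0.68 for AFI33239 and 0.87 for AFI13390 in distal segments, and 1 gene of the 60 was still called. Leaving out a distal library gave 1 to 3 calls in place of 4, and AFI09086 was among them each time. The proximal call of AFI09086 was lost without any 1 proximal library except replicate 5 at 5 dpa, without which 5 genes were called, and it was lost with the 3 libraries named above left out. The change between days of the distance to medial segments gave no call for distal (0.0886% of all genes) or proximal segments (0% of all genes). An unadjusted p under 0.05 was reached by 7 (7.56% of all genes) and 3 (5.02% of all genes) of the 60 genes. The choice required a rise on both days and so left out genes raised on 1 day alone. The lack of calls is therefore given as a description.

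In the time course, most of the 60 genes were above the control soon after amputation. At 48 hpa 49 of the 60 were above the control (51.5% of all genes reaching 1 TPM) and 33 by more than 1 on the log2 scale (14.1% of such genes). At 72 hpa 50 were above (51.2% of such genes) and 36 by more than 1 (15.1% of such genes). Under the same total, 56 of the 60 were above the control at either stage, against 77.3% and 80.4% of such genes. Column totals of the time course ranged over 551379 (50% proximal) to 1866500 (stage 3), with 1736416 in the control. Courses of single genes, given below as deposited, therefore depend on the scaling. With a single library a stage there is no test, and these counts describe the libraries. The median over the 60 genes minus the control was 1.20 and 1.33 at 48 and 72 hpa, 1.03, 1.22 and 0.82 over stages 3, 4 and 5, and 0.86 and 0.09 in the distal and proximal 50% libraries, while all genes reaching 1 TPM had medians of 0 to 0.06.

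From stage 3 on, the list ran between 2 others of 60 genes each, chosen from the same explant samples as highest in distal or in proximal segments, which share no gene with it. At 48 hpa its median of 1.20 was above that of either. The distal-high genes climbed on, with medians of 1.01 at 48 hpa, 2.17 at stage 3 and 2.50 at stage 5. The proximal-high genes had a median of 0.59 at 48 hpa and lay below the control later, at -1.36 at stage 3 and -1.88 at stage 5. The genes raised alike kept a level in between through stages 3 to 5. When every library was scaled to the same total, all genes reaching 1 TPM shifted to medians of 0.68 and 0.85 at 48 and 72 hpa, 0 and 0.50 at stages 3 and 5, and the 60 genes were at 2.06, 2.48, 0.85 and 1.71, above all genes at each of them.

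**Figure D3:**
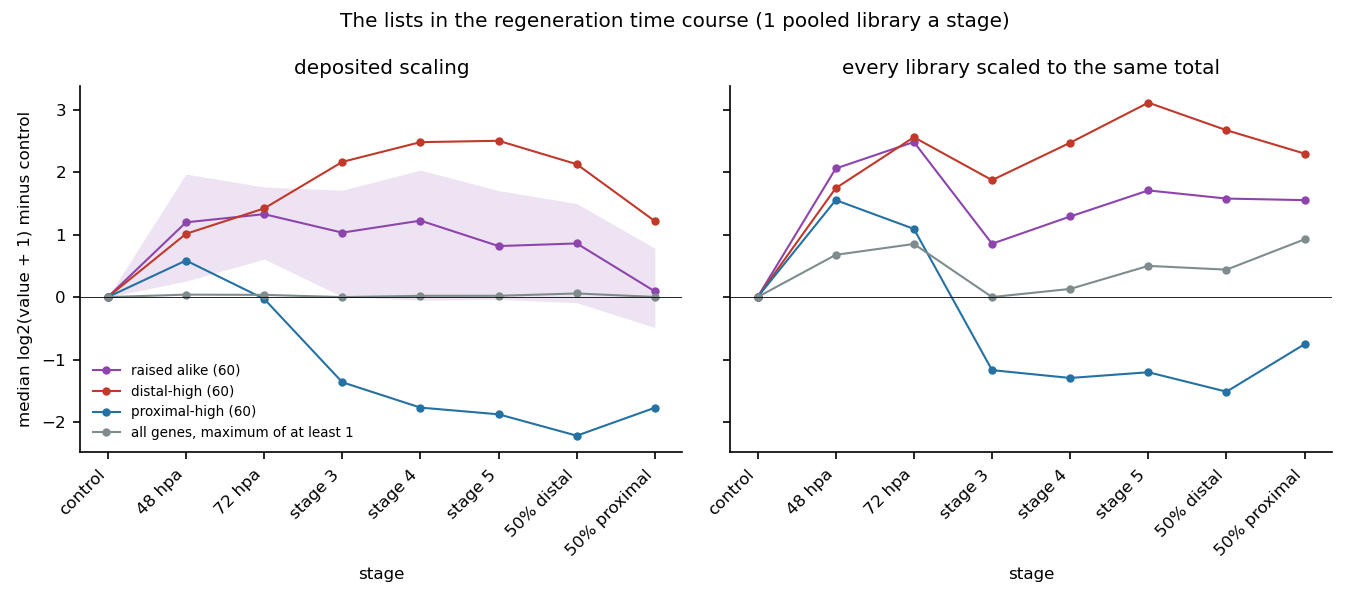
Median over each list of log2(value + 1) minus the control at each stage, with the values as deposited (left, the band being the middle 50% of the 60 genes) and with every library scaled to the same total (right). The genes raised alike (purple) stay between the distal-high (red) and proximal-high (blue) genes from stage 3 on under both scalings.

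The list was not uniform in time. By the stage of their highest value, 2 of the 60 genes peaked in the control (25.5% of all genes reaching 1 TPM), 22 at 48 or 72 hpa (21.5%), 33 at stages 3 to 5 (35.6%) and 3 at the 50% stages (17.4%). Scaled to the same total, 36 peaked at 48 or 72 hpa (41.0% of all such genes) and 18 at stages 3 to 5 (15.1%), so the split between the early and later stages depends on the scaling. All 22 early genes stayed early under both scalings, and 17 of the 33 later ones stayed later. Early genes filled the top of the list, with 13 of the 20 highest ranks against 9 of the other 40, and 15 against 21 under the same total.

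Within the 0.5 that the choice allowed, distal stood above proximal for most early and most later genes at 3 dpa, 16 of the 22 (median difference 0.20) and 29 of the 33 (0.25). At 5 dpa it did so for 26 of the 33 later genes (0.23) and for 7 of the 22 early genes (-0.14), but for 31 and 13 of them (0.49 and 0.11) under the same total, so the direction for early genes depends on the scaling. The choice used these differences, so they are given with no test.

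AFI18194 had the largest early rise among genes that reached at least 10 TPM. The control held 9.09 TPM, the 48 and 72 hpa libraries 175 and 136 TPM, stages 3, 4 and 5 held 67.3, 42.3 and 29.1 TPM, and the distal and proximal 50% libraries 18.2 and 18.5 TPM. The rise at 48 hpa was 19.2-fold, and the later libraries lay lower stage by stage down to 50%. AFI02359 had a like course, with 3.27 TPM in the control, 23.8 and 23.3 TPM at 48 and 72 hpa, 12.9, 9.09 and 8.71 TPM over stages 3, 4 and 5, and 2.78 and 0.312 TPM in the distal and proximal 50% libraries.

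A group of 8 genes, 13.3% of the list, was more than 1 above the control at 48 and 72 hpa and below it over stages 3 to 5, where 1.40% of all genes reaching 1 TPM were. Scaled to the same total and set against the shift of all genes, the same 8 genes showed it, with 2.25% of all genes. They are AFI25218, AFI24950, AFI00464, AFI18344, AFI18020, AFI07715, AFI17585 and AFI02503, named after their values were seen, and each was highest at 48 hpa. They stood 3.34-fold to 11.3-fold above the control at 48 hpa and at 0.0966 to 0.549 times the control at stage 5. AFI25218 had 4.76 TPM in the control, 48.8 and 42.8 TPM at 48 and 72 hpa, and 2.42, 1.03 and 0.459 TPM over stages 3, 4 and 5. AFI00464 had 86.2 TPM in the control, 288 and 226 TPM at 48 and 72 hpa, and 69.3, 19.4 and 11.5 TPM over stages 3, 4 and 5. The 48 and 72 hpa libraries contained the old segment and stages 3 to 5 new tissue alone, so stage and tissue cannot be told apart here. The control, made from mature arm segments, held these genes at lower levels than the 48 hpa library did. The cause was not tested.

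In explants these 8 genes had no common direction between days. AFI25218 was at 21.8, 11.7 and 12.9 TPM at 5 dpa and 30.2, 28.8, 23.7 and 32.1 TPM at 3 dpa in distal samples, lower without overlap but not called (difference -0.89 on the log2 scale, limma adjusted p = 0.213). AFI00464 was at 232, 163 and 145 TPM in distal, 193, 208 and 123 TPM in proximal and 66.7, 100 and 68.5 TPM in medial samples at 5 dpa, and at 141, 134, 134 and 143 TPM, 105, 100 and 119 TPM, and 50.5, 44.6, 37.8 and 66.8 TPM in those segments at 3 dpa. The difference of 5 from 3 dpa was above 0 for 4 of the 8 genes in distal, 6 in proximal and 7 in medial segments, with medians of -0.02, 0.37 and 0.34, and none was called.

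**Figure D4:**
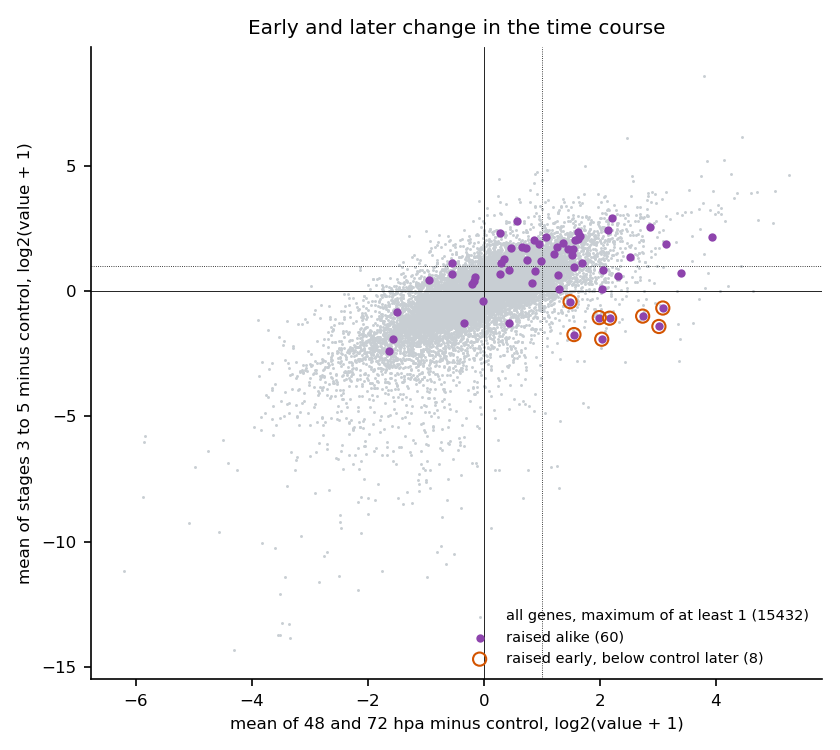
Each gene's mean of 48 and 72 hpa (x) and of stages 3 to 5 (y) minus the control, in log2(value + 1), for the 60 genes raised alike (purple) over the 15432 genes reaching 1 TPM (grey). Orange rings mark the 8 genes above 1 on the x axis and below 0 on the y axis.

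Another 18 of the 60 genes were more than 1 above the control both early and over stages 3 to 5 (7.45% of all genes reaching 1 TPM), and 12 only over stages 3 to 5 (9.34% of such genes). Under the same total and against the shift of all genes, these counts were 26 (7.44%) and 6 (5.80%), so the split between them depends on the scaling. AFI11492 had the largest rise over stages 3 to 5. The control held 3.23 TPM, the 48 and 72 hpa libraries 16.2 and 21.6 TPM, stages 3, 4 and 5 held 22.1, 33.5 and 38.9 TPM, and the distal and proximal 50% libraries 29.2 and 12.3 TPM. In explants it was at 30.7, 36.2 and 26.7 TPM in distal, 26.7, 30.3 and 17.9 TPM in proximal and 7.34, 11.7 and 7.54 TPM in medial samples at 5 dpa.

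Of the 3 genes whose distal level rose between days in explants, 2 were late in the time course. AFI09086 had 49.5 TPM in the control, 61.7 and 58.9 TPM at 48 and 72 hpa, and then 307, 249 and 204 TPM over stages 3, 4 and 5, so its step came after 72 hpa. AFI33239 had 3.18 TPM in the control, 3.75 and 7.12 TPM at 48 and 72 hpa, and 19.8, 30.02 and 35.9 TPM over stages 3, 4 and 5. AFI27759, which fell between days in distal explants, was at 3.16 TPM in the control and highest at 72 hpa, at 12.8 TPM.

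AFI13390 had the largest fall of the list, both early and over stages 3 to 5. The control held 9.33 TPM, the 48 and 72 hpa libraries 2.22 and 2.40 TPM, and stages 3 and 5 held 1.71 and 1.72 TPM, with stage 4 listed at 0. The distal and proximal 50% libraries then held 21.7 and 23.5 TPM. A gene raised at both ends of explants was thus below the control through most of the time course. In all, 5 of the 60 genes were below the control both early and over stages 3 to 5, where 36.4% of all genes reaching 1 TPM were.

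Hs90b had 122 TPM in the control, 206 and 203 TPM at 48 and 72 hpa, 258, 295 and 323 TPM over stages 3, 4 and 5, and 204 and 111 TPM in the distal and proximal 50% libraries. As deposited, Hs90b was thus highest at stage 5, and the 50% proximal library was the only one below the control. AFI01608 as deposited stayed within 0.809-fold to 2.06-fold of the control and was highest at stage 3, at 1841 TPM against 896 TPM in the control. Both courses depend on the scaling. Under the same total and against the shift of all genes, both genes were more than 1 above the control early and over stages 3 to 5.

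**Figure D5:**
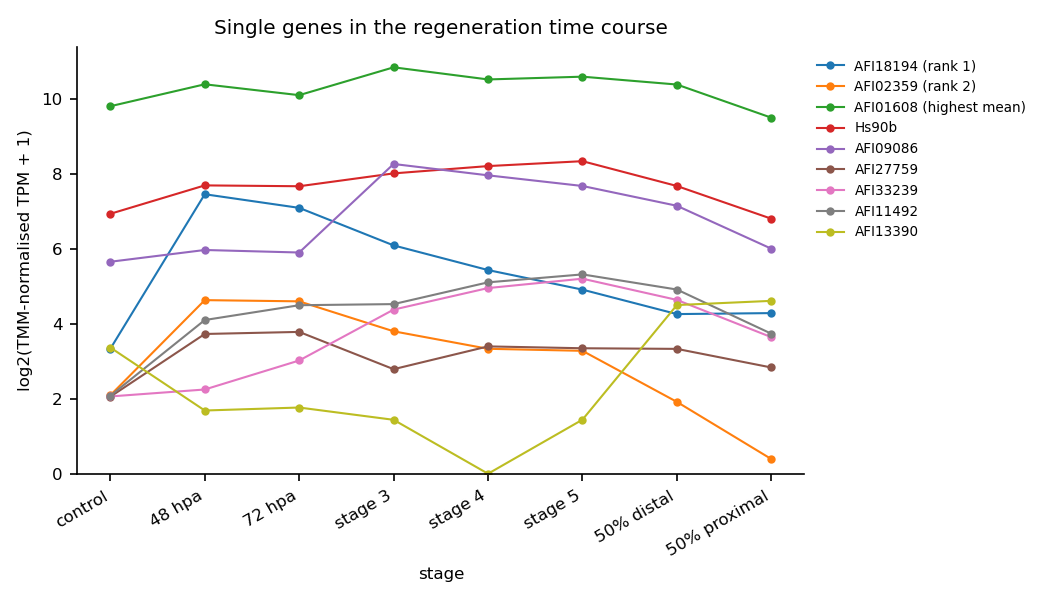
log2(TMM-normalised TPM + 1) of 9 of the 60 genes at each stage of the time course, 1 library a stage. AFI18194 and AFI02359 are highest at 48 hpa, AFI09086 steps up at stage 3, AFI11492 and AFI33239 climb to stage 5, and AFI13390 is low until the 50% stages.

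Of the 60 genes, only Hs90b is among the annotated chromosome 1 genes, so no gene list could contain any other of them. The chaperone list was put together with Hs90b in it. The counts that follow describe chromosome 1 genes and do not show what the 60 genes are. Among 47 immune genes tested, 0 were called higher and 3 lower in distal segments at 5 dpa, where 3.42% and 2.05% of all genes were, and 1 higher and 0 lower in proximal segments, where 1.52% and 0.438% were. At 3 dpa 1 was higher and 0 lower in each, where 1.7% of all genes were higher in distal and 0.438% in proximal segments. Of 7 stemness genes, 1 was higher in distal segments on either day (3.42% of all genes at 5 dpa and 1.7% at 3 dpa). Of 11 protease inhibitor genes, 2 were lower in distal segments at 5 dpa (2.05% of all genes) and 1 at 3 dpa (0.284% of all genes). At 5 dpa 2 of 38 matrix genes and 1 of 7 cytochrome P450 genes were lower in distal segments, where 2.05% of all genes were. Of 27 transcription factor genes, 1 was higher in distal segments at 3 dpa (1.7% of all genes). Among 12 metalloprotease, 26 kinase, 22 pattern recognition, 8 signalling and 3 serine protease genes, 0 were called in any of these comparisons.

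Some markers of other cells differed between segments as well, though few were called, and the part of cell makeup in the rise of the 60 genes was not tested. The summed level of 2 collagen genes (Cola1 and Coca1-3) was 18.9 to 26.3 TPM in distal, 26.1 to 43.3 TPM in proximal and 35.3 to 67.5 TPM in medial samples at 5 dpa. Both genes were called lower in distal segments at 5 dpa (2.05% of all genes). At 3 dpa the sum was 28.5 to 46.7 TPM in distal, 35.7 to 45.9 TPM in proximal and 53.8 to 62.9 TPM in medial samples, above both wound ends without overlap. The summed level of 9 genes of ciliated cells was 43.0 to 54.6 TPM in distal, 32.04 to 50.9 TPM in proximal and 28.4 to 32.1 TPM in medial samples at 5 dpa, where 0 of the 8 that passed the filter were called. The 8 stemness genes summed to 3307 to 3380 TPM in distal, 1904 to 6957 TPM in proximal and 1398 to 2181 TPM in medial samples at 5 dpa, and to 1547 to 2037 TPM, 2415 to 2650 TPM and 1505 to 2050 TPM in those segments at 3 dpa. Such sums follow the most abundant genes. Over the 7 stemness genes tested, the median log2 difference from medial segments at 3 dpa was 0.54 in distal and 0.36 in proximal segments. That order is the reverse of the order of the sums. The summed level of 3 ribosomal genes was 25246 to 42307 TPM in distal, 16428 to 68475 TPM in proximal and 13815 to 24379 TPM in medial samples at 5 dpa. Proximal and medial sums overlapped there, and 0 of the 3 genes were called. At 3 dpa all segments overlapped, at 14674 to 21232 TPM in distal, 18400 to 21460 TPM in proximal and 14434 to 19507 TPM in medial samples. Sums of nerve, muscle, dividing-cell and immune markers overlapped between wound ends and medial samples at 5 dpa. Of the 5 dividing-cell markers, 1 was called higher in distal (3.42% of all genes) and 1 in proximal segments (1.52% of all genes) at 5 dpa. Apart from 3 to 6 of the 75 immune markers, no marker was at 0 throughout a group.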

How the data were processed

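RNA-seq of 20 explant and 8 time-course samples of *A. filiformis* was used as 2 deposited tables. Their values are a normalised signal: the authors quantified reads against their gene models with kallisto and rescaled TPM with TMM in edgeR, a step read, for the explants, from how their table is labelled. TMM assumes that most genes do not change, which is why rescaling to the same total was tried. Depth cannot be read from TPM. Samples were grouped by their labels, and the labels do not state separate cultures, so p-values may measure technical spread.

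Members followed the stated rule. Members and lists were chosen with earlier results of these data known. limma 3.58.1 (R 4.3.3) with an intensity trend was fitted to log2(value + 1) over the 20 samples in 6 groups, for genes at 1 or more in at least 3 samples, and fold differences on this scale understate change in low genes. The fit was checked on simulated data. Other steps used matplotlib 3.10.9, scipy 1.17.1, pandas 2.3.3 and numpy 2.4.6 in Python 3.11.15. Named genes are annotated members, ranks 1, 2, 60 and 61, the highest mean, and the largest time-course changes among genes reaching 10; others were named after values were seen.
Alternatives were a pseudocount of 0.1, other filters, scaling by the median of ratios or to equal totals, no trend, fits of only the groups compared, a replicate block, other limits of the rule and each replicate left out.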

Additional observations from a re-analysis of the deposited data

Results flagged for a closer look

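Hs90b in replicate 4 of medial segments at 3 dpa, at 349 TPM, lay far from the other 3 medial samples, which were at 120 to 152 TPM: its gap to the nearest was 0.861 of the whole range, past Dixon's 95% limit for 4 samples. It was the 1 such sample among 22 groups of named genes examined, where chance gives about 1 in 20.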

How the results depend on the processing

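Which genes make up the list depends on the processing. Of the 60 genes, the rule kept 58 with scaling by the median of ratios, 27 with every library scaled to the same total, 21 with a pseudocount of 0.1, 14 with a limit of 0.25 and 23 with a limit of 1 between the wound ends, and 39 (without replicate 4 of proximal segments at 5 dpa) to 55 with a replicate left out. Keeping 30 genes gives 30 by construction, and without the 3 libraries that stand apart 34 stayed. With every library scaled to the same total, 25 genes were called higher in distal than in medial segments at 5 dpa (387 of all genes). In proximal segments 9 and 8 were at 5 and 3 dpa (61 and 51 of all genes). At 5 dpa, proximal against medial gave 2 calls when only the groups compared were fitted (13 of all genes) and 19 without the 3 libraries (115 of all genes). For 5 against 3 dpa, scaling to the same total gave 1 call in distal and 0 in proximal segments. In proximal segments a filter of 5 gave 2 calls, and 0 were left with only the groups compared or without the 3 libraries. The change of distal minus medial between days gave 1 call with only the groups compared. With a replicate left out, calls against medial ranged over 29 to 40 for distal and 21 to 43 for proximal segments at 5 dpa, and 29 to 38 and 8 to 16 at 3 dpa. Calls between days ranged over 1 to 3 in distal, 0 to 5 in proximal and 0 to 1 in medial segments, and stayed at 0 for both changes of the distance to medial segments. The cause was not tested.

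A pairing of segments by replicate number was looked for in each sample's deviations from its group mean, not in its levels. These deviations correlated between same-numbered samples of different segments at -0.041 to 0.242 (5 dpa) and 0.017 to 0.405 (3 dpa). Between samples of different numbers the median was -0.084 (5 dpa) and -0.048 (3 dpa). At 3 dpa every pair with a proximal sample was above 0.1 (0.168 to 0.405), which hints at a pairing there; over all comparisons not every pair was, and the labels state none. With day and number as a replicate block, calls against medial were 40 and 23 in distal and proximal segments at 5 dpa and 37 and 14 at 3 dpa. Both changes of the distance to medial segments gave 0 with that block. Between days the block was the number alone, which joins samples of different days, and no pairing across days was looked for. Calls between days were then 4 in distal, 2 in proximal and 0 in medial segments.

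In the time course, scaling to the same total took the median over the 60 genes to 2.24 at 48 and 72 hpa and 1.58 at the 50% stages, with 60% and 30% of the genes highest at 48 and 72 hpa and at stages 3 to 5. Of genes reaching 10, 0% were highest in the control. A single library a stage limits every value there.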
